A study of Mus musculus with 2 samples.

Results

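Complement is the blood-borne and cell-surface defence system in which a cascade of proteases cleaves C3 and C4 so that their fragments coat a target, call in leukocytes and can end in a pore through its membrane. It starts by the classical pathway (antibody and C1q), the lectin pathway (sugar-binding proteins with the MASP proteases) or the alternative pathway (factor B and factor D), and host cells hold it in check with inhibitors in plasma and on their own membranes. The liver makes most of the plasma proteins, and fibroblasts and macrophages are known to make several locally.

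The genes described here are complement components, inhibitors and a receptor: C3, C4b, C2, Cfb, Cd59a, Cd55, Serping1, Masp1 and C3ar1. They were taken as the probe sets that the platform annotation assigns to exactly 1 of these 9 symbols. The set was proposed with the difference between the 2 arrays already known, so its differences are descriptions. Of the 9 genes, 8 were measured, each by 1 probe set, out of 19938 genes in all. C3, the central component, had no probe set assigned to it alone in the annotation used and was not analysed here.

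Total RNA came from cultured primary fibroblasts of the mouse embryo (MEFs, connective-tissue cells), from embryos at 13.5 days post coitum. In the MatDup.dist7 cells both copies of distal chromosome 7 are of maternal origin, and in the PatDup.dist7 cells both are of paternal origin. Each genotype was hybridised to 1 array, and the sources used here do not say how many embryos a culture came from. With no replicate, none of the differences below could be set against the spread of cultures, and precision is limited by having 1 array per genotype.

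The arrays carried the labels' marks: Cdkn1c, a maternally expressed gene of the segment, had an intensity of 1109 on the MatDup.dist7 array against 0.0132 on the other, and the paternally expressed Igf2 had 7.48 and 1013. All 10 fibroblast markers lay within 2-fold, as did 18416 of all 19938 genes. Of the 10, 9 lay above the median of all probe sets on both arrays. Macrophage markers were present as well: 9 of 12 lay above that median on both arrays and 11 on at least 1, with intensities summing to 5158 for MatDup.dist7 against 5427 for PatDup.dist7. Sex-linked transcripts differed between the arrays, with the Y-linked Eif2s3y at 112 and 6.44 and Xist at 0.00166 and 91.2, so sex and genotype cannot be told apart for any gene below.

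Upstream sequences of membrane inhibitors are shown first, from the RefSeq promoter table of build GRCm38.p6, in which 3 of the 8 genes matched (Cd59a, Cd55 and C3ar1) and C4b, C2, Cfb, Serping1 and Masp1 did not. Each is the 250 bases before the annotated start, 5′ to 3′ on the strand of the gene. Cd59a, on the plus strand at chr2:104095551-104095800, and Cd55, on the minus strand at chr1:130462745-130462994, had the largest differences toward PatDup.dist7 among the 8 genes. Cd59b, on the plus strand at chr2:104070816-104071065, is the neighbouring copy of Cd59a and is shown for comparison. Capitals mark matches, on either strand, to the NF-kB pattern (GGG, any 5 bases, CC) and the interferon-response pattern (TTTC, any 2 bases, TTTC).
Cd59a: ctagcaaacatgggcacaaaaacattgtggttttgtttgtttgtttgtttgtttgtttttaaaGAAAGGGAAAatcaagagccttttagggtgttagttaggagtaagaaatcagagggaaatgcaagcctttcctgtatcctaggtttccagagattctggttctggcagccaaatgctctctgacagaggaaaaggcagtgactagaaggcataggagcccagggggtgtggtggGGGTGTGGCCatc
Cd59b: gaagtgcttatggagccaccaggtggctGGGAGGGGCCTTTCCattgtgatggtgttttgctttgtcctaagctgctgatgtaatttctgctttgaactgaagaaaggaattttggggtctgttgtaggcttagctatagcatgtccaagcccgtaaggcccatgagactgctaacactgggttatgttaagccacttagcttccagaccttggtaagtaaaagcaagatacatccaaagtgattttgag
Cd55: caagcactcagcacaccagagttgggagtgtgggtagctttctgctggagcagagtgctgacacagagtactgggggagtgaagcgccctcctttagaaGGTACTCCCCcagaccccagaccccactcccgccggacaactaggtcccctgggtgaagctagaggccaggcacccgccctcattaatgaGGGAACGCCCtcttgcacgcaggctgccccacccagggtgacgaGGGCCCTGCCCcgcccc
The full table window holds 50 further bases after the start, and over these 300 bases the Cd59a and Cd59b windows had 1 CpG each, against a median of 7 over all 32851 promoters, and the Cd55 window had 12. GC content was 45.7%, 47.0% and 63.3% in Cd59a, Cd59b and Cd55, against a median of 52.7%. The NF-kB pattern, which was in all 3 windows, is loose and was in 50.8% of all promoters. The interferon-response pattern was in the Cd59a window, at 187 bases before the start on the opposite strand, and in 3.44% of all promoters. The interferon-activated GAS pattern TTCNNNGAA (in 8.30% of promoters) and the TATA box letters TATAAA (in 13.6%) were in none of the 3 windows. Overlapping matches were each counted. A match is a description of letters and not a binding site.

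Cd59a was the member with the largest difference. It encodes the membrane-anchored inhibitor that blocks assembly of the terminal pore. Its intensity was 62.9 for MatDup.dist7 against 409 for PatDup.dist7, giving a log2 difference of -2.43 (MatDup.dist7 minus PatDup.dist7, on the log2(intensity + 16) scale used throughout), or 5.39-fold. The PatDup.dist7 value lay well above the median of all probe sets, 66.4, and the MatDup.dist7 value just below it. Genes whose higher value passed this median, 12733 in all, are called above the signal filter below. Cd59a stood 11th of all 19938 genes in order of excess in PatDup.dist7. That place is a description, since Cd59a was proposed on this contrast. With pseudocounts of 1 and 64 in place of 16 the difference was -2.68 and -1.90.

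Its neighbour Cd59b, a second copy of the gene that in the mouse is known to be expressed mainly in testis, went the same way. Its intensity was 26.9 against 80.5 (MatDup.dist7 first, as in all pairs below), a log2 difference of -1.17. The 2 genes are close copies, so signal of one at the probe set of the other is possible and was not tested. The other genes around them differed less: Fbxo3 by -0.48, Hipk3 by -0.39, and A930018P22Rik by 0.94 in the opposite direction.

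Cd55 encodes decay-accelerating factor, a membrane inhibitor that takes apart the enzyme complexes cleaving C3 and C5. Its intensity was 39.4 for MatDup.dist7 against 94.2 for PatDup.dist7. The log2 difference of -0.99 fell just short of 2-fold, and it passed when the median difference of all genes was set to 0 (-1.01) and after quantile normalisation (-1.06). With a pseudocount of 64 it was -0.61. The adjacent copy Cd55b lay the other way, at 56.3 and 27.4, both under the signal filter. Its difference was 0.73, or 0.40 with a pseudocount of 64. Cd55 and Cd55b also share sequence, so these opposite values rest on probe sets that may not fully separate them. Thus Cd59a and Cd55 were both higher in PatDup.dist7, while Cr1l, the mouse membrane regulator also called Crry, was nearly equal at 249 and 237 (0.06).

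Serping1 encodes C1 inhibitor, the plasma serpin that blocks the C1r, C1s and MASP proteases. It was higher on the other array, at 88.5 for MatDup.dist7 against 28.6 for PatDup.dist7. The log2 difference was 1.23, or 2.34-fold, and 0.72 with a pseudocount of 64, which is under 2-fold. Its MatDup.dist7 value lay above the median of all probe sets and its PatDup.dist7 value below it. The 6 measured genes around it differed by -0.17 to 0.65.

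Cfb encodes factor B, the protease of the alternative pathway convertase. Its intensity was 52.7 for MatDup.dist7 against 10.3 for PatDup.dist7, a log2 difference of 1.38. Both values lay under the median of all probe sets, so the size depends on how low signals are treated: it was 2.25 with a pseudocount of 1 and 0.65 with 64. C2, the classical pathway counterpart of factor B and its immediate neighbour on chromosome 17, was close to equal at 55.4 and 61.1 (-0.11), also under that median. C4b, which encodes C4, the partner of C2, was nearly equal as well, at 116 and 119 (-0.03). C4a, a close copy of C4b whose signal may not be fully separate, was at 47.1 and 27.2 (0.55). The adjacent genes Cfb and C2 thus stood apart from each other, and the genes on either side of them, Nelfe (-0.18) and Zbtb12 (-0.24), were near 0.

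Masp1 and C3ar1 lay well above the median of all probe sets on both arrays and differed by less than 2-fold. Masp1, which encodes a protease of the lectin pathway, had 723 against 1111 (log2 difference -0.61). C3ar1, the receptor for the C3a fragment, had 558 and 699 (-0.32). Both were lower in MatDup.dist7 and stayed within 2-fold under all 8 alternatives for their value, some of which could not change it.

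**Figure D1:**
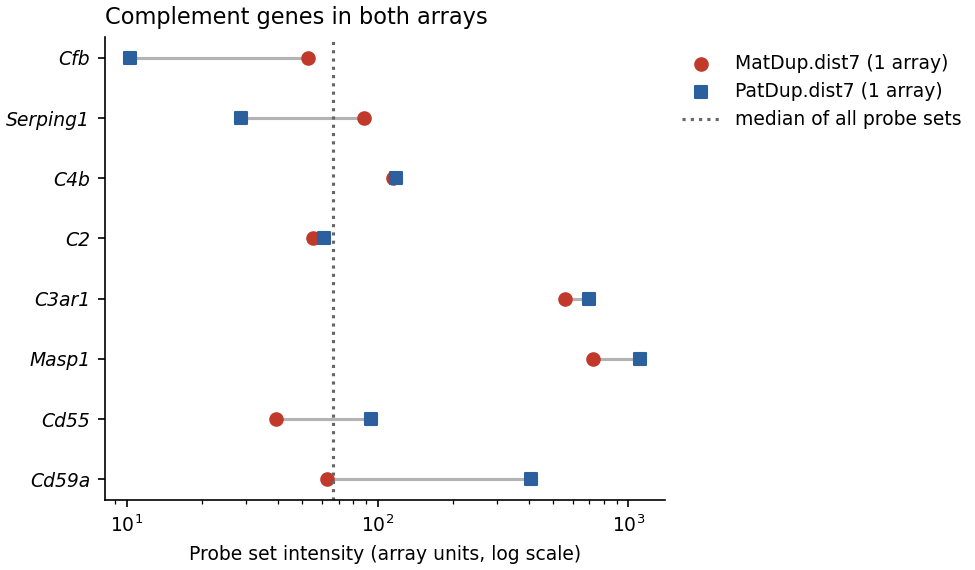
Intensity of each of the 8 measured complement genes on the MatDup.dist7 array (circles) and the PatDup.dist7 array (squares), on a log axis in array units, with the median of all probe sets as a dotted line. Cd59a spans 62.9 to 409 and Cfb 10.3 to 52.7 in the opposite direction, while C4b is nearly the same in both.

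By count, 2 of the 8 genes were past 2-fold toward MatDup.dist7 (Cfb and Serping1), 1 toward PatDup.dist7 (Cd59a) and 5 lay within 2-fold. Over all 19938 genes, 4.47% were past 2-fold toward MatDup.dist7 and 3.16% toward PatDup.dist7. At 1.5-fold the counts were 2 and 3, beside 15.5% and 12.5% of all genes, and at 3-fold they were 0 and 1, beside 0.818% and 0.552%. Because the genes were proposed on this contrast, nothing is read from the comparison with that background. The split of 2 and 1 became 2 and 2 with the median difference set to 0 and after quantile normalisation, through Cd55. The median of the 8 differences was -0.21, and that of all genes was 0.02. As a yardstick within the arrays, probe sets of the same gene above the signal filter differed in this value with a standard deviation of 0.43 (1931 probe sets of 724 genes). It holds no variation between cultures. The Cd59a difference was 5.7 times this value, that of Cfb 3.2, Serping1 2.9, Cd55 2.3 and Masp1 1.4 times, and those of C3ar1, C2 and C4b were below it. Cfb and C2 lay under the filter, so for them the yardstick comes from genes with stronger signal.

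**Figure D2:**
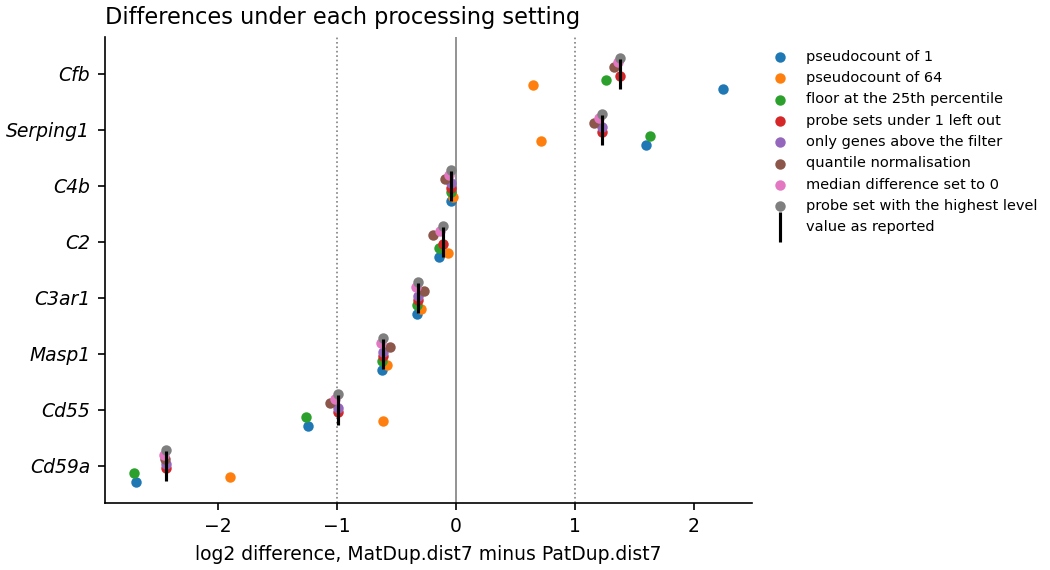
Log2 difference (MatDup.dist7 minus PatDup.dist7) of each of the 8 genes as reported (black bar) and under up to 8 processing settings (points), with dotted lines at 2-fold. No gene changes sign, Cd59a stays beyond 2-fold between -2.70 and -1.90, and Cfb ranges from 0.65 to 2.25.

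The rest of the pathway was described with a list of 56 complement genes ordered by role, of which 52 were measured and 27 lay above the signal filter. The others, C3 among them, had no value here. Of the 52, 4 were past 2-fold toward MatDup.dist7 and 4 toward PatDup.dist7, which is 7.69% in each direction, beside the 4.47% and 3.16% of all genes. The list includes the 8 genes above; of its other 44, 2 and 3 were past 2-fold. The list median was 0.02, the same to 2 decimals as that of all genes. The even split of 4 and 4 became 3 and 5 after quantile normalisation and with the median difference set to 0.

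Among the recognition and protease genes that start the cascade, most values were close. In the classical pathway, 7 of 7 measured genes lay within 2-fold, as did 18416 of all 19938 genes. Of these 7, 4 were above the signal filter. The chains of C1q are largely macrophage products: C1qa had 467 and 728 (-0.62), C1qb had 621 and 919 (-0.56), and C1qc had 1075 and 965 (0.15). The 3 chains did not differ in 1 direction. The protease genes C1ra and C1s1 differed by 0.10 and -0.06. In the lectin pathway, Colec10, a collectin gene, was at 46.4 against 14.8 (1.02), under the signal filter, and it was within 2-fold after quantile normalisation (0.97). The ficolin gene Fcnb was at 14.7 and 0.00138, so its difference of 0.94 rests on a value near the bottom of the scale and was 3.97 with a pseudocount of 1.

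All 6 genes for the terminal pore were within 2-fold, as were 18416 of all 19938 genes. Of the 6, 3 were above the signal filter. The differences ranged from C6, under the filter at 34.4 and 55.9 (-0.51), to C8a at 72.7 and 42.7 (0.59). C8g, the small subunit of C8, was equal at 188 and 188. Properdin, the stabiliser of the alternative convertase encoded by the X-linked Cfp, had 356 and 483 (-0.42). Hc, which encodes C5, had 40.8 and 33.5 (0.20). Taking the starting, convertase and terminal genes as activating components, 2 of 27 were past 2-fold toward MatDup.dist7 (Cfb and Colec10, both under the signal filter) and none toward PatDup.dist7, beside 4.47% and 3.16% of all genes, and Cfb belongs to the genes proposed on this contrast.

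Among the inhibitors, the median absolute difference was 0.38, the same as over all genes. Of 15 measured, 2 were past 2-fold toward MatDup.dist7 (Serping1 and Csmd1) and 2 toward PatDup.dist7 (Cd59a and Cd59b), beside the 4.47% and 3.16% of all genes, and the median was 0.06. Serping1 and Cd59a belong to the genes proposed on this contrast. In the fluid-phase group, C4bp, which encodes the C4b-binding cofactor, had 57.8 and 21.9 (0.96). Cfi, the protease that cuts C3b and C4b, had 16.2 and 8.74 (0.38). Both C4bp and Cfi were under the signal filter. Clusterin (Clu) had 134 and 156 (-0.20). In the membrane group, Csmd1, a large complement-regulating membrane protein gene, had 44.3 and 12.2 (1.10), with both values under the signal filter. Its relatives Csmd2 and Csmd3 differed by 0.19 and 0.03, the last turning to -0.02 after quantile normalisation. Cd46 had 2.46 and 5.19, both far under the signal filter.

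Among receptors, the C5a receptors are encoded by adjacent genes on chromosome 7. C5ar1 was equal at 440 and 439, while C5ar2, the alternative receptor, had 8.24 against 55.5 (-1.56, or -0.73 with a pseudocount of 64), both under the signal filter. These genes stand at places 165 and 166 of 1738 measured genes along chromosome 7, far from Igf2 at place 1699. The complement receptor 3 subunits Itgam (238 and 326, -0.43) and Itgb2 (205 and 143, 0.47) differed in opposite directions, and Itgam and Itgax stand at places 1508 and 1509. None of the 8 selected genes is on chromosome 7. Cd93, a membrane lectin of endothelial and myeloid cells first described as a C1q receptor, had 33.5 and 219 (-2.25), next in size to Cd59a in the list. Beside it, 3 of 5 endothelial markers were higher in PatDup.dist7, as were 9698 of all 19938 genes. They were Kdr at -0.75, Tek at -0.73 and Pecam1 at -0.03, while Cdh5 (0.51) and Emcn (0.45) were higher in MatDup.dist7. Of the 5, only Pecam1 was above the signal filter. All 5 lay within 2-fold, as did 18416 of all genes, with summed intensities of 285 and 310. The part of these markers in the Cd93 value was not tested.

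**Figure D3:**
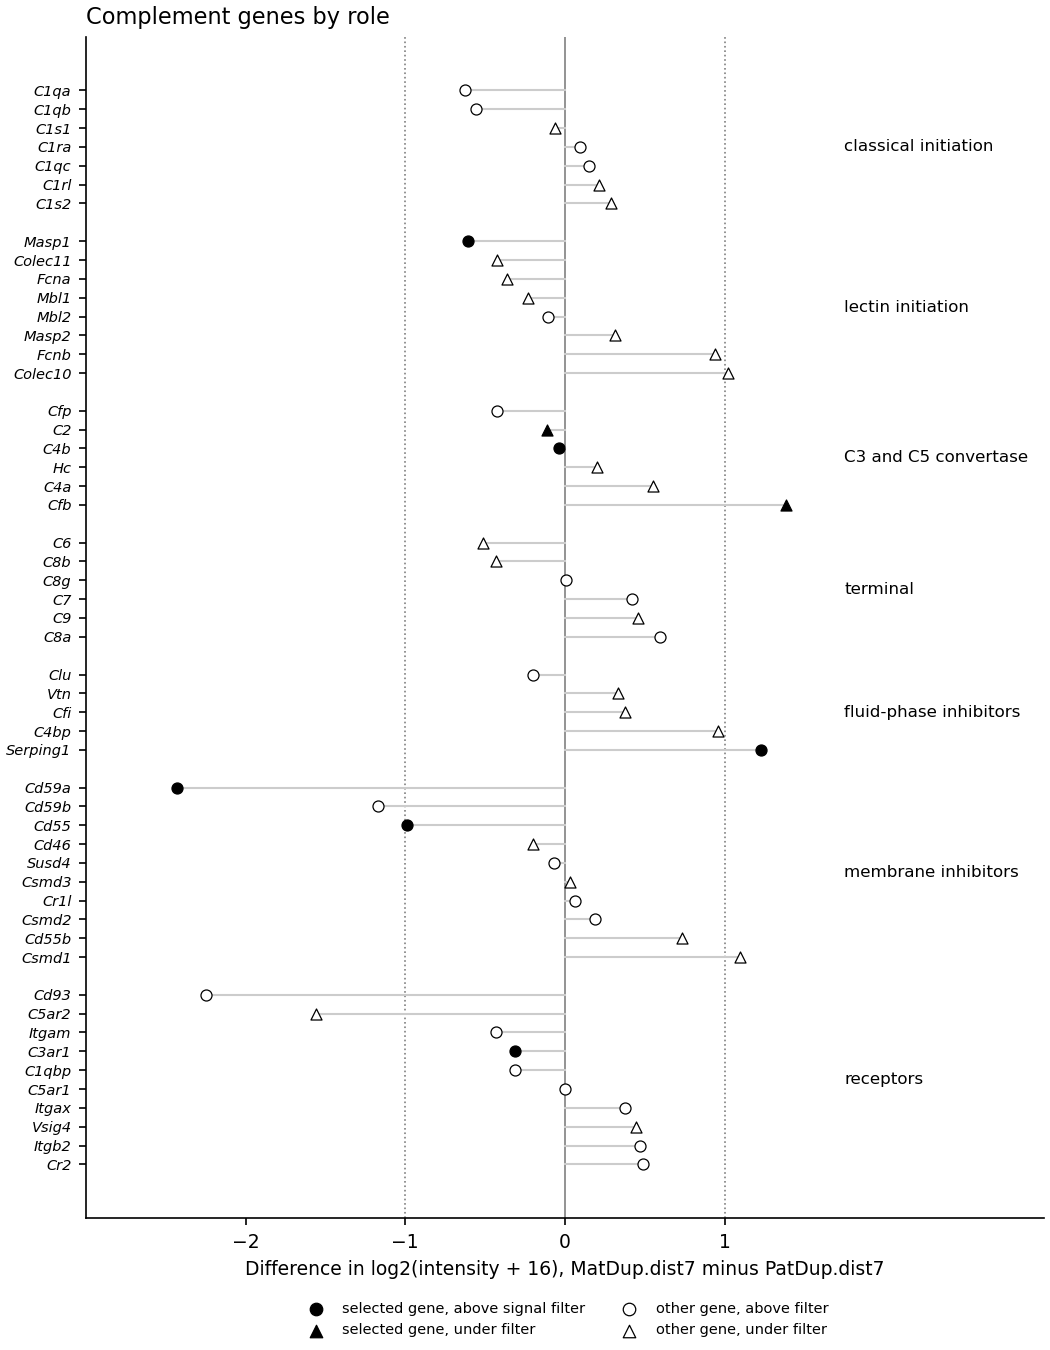
Difference in log2(intensity + 16), MatDup.dist7 minus PatDup.dist7, of the 52 measured complement genes grouped by role, with filled symbols for the 8 selected genes, triangles for genes under the signal filter and dotted lines at 2-fold. Cd59a at -2.43 and Cd93 at -2.25 lie farthest toward PatDup.dist7, and Cfb at 1.38 farthest toward MatDup.dist7.

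Genes next to the selected ones mostly lay within 2-fold, as did 18416 of all 19938 genes. Taking the 3 measured genes on each side of every selected gene gave 42 distinct genes that were not themselves selected. Of these, 1 was past 2-fold toward MatDup.dist7 (Tnxb, a matrix protein gene beside C4b, 1.01) and 1 toward PatDup.dist7 (Cd59b), beside 4.47% and 3.16% of all genes. The differences of the 42 genes ran from -1.17 to 1.01 with a median of -0.09. In the cluster of complement regulators on chromosome 1, Cd55 (-0.99) stood beside Cd55b (0.73) and C4bp (0.96), the last 2 under the signal filter. The median of the 6 neighbours had the same sign as the gene at C3ar1 (-0.45), Cd59a (-0.43), Masp1 (-0.33), C2 (-0.17) and Serping1 (0.24), and the opposite sign at C4b (0.38), Cd55 (0.32) and Cfb (-0.15).

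**Figure D4:**
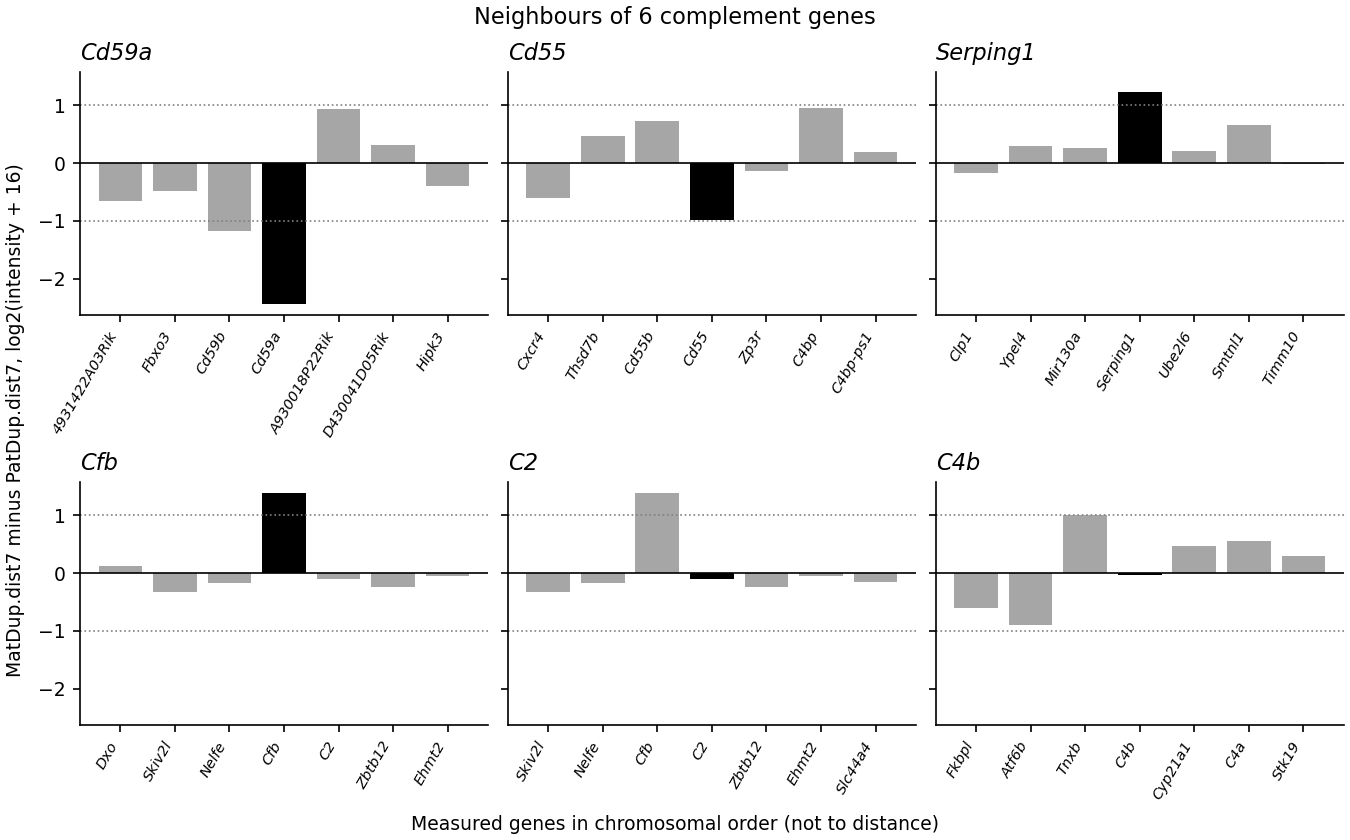
Difference in log2(intensity + 16), MatDup.dist7 minus PatDup.dist7, of 6 selected genes (black bars) and the 3 measured genes on each side of them (grey bars), in chromosomal order and not to distance. Cd59b at -1.17 is the neighbour nearest in value to Cd59a, whereas Cfb at 1.38 stands above C2 at -0.11.

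Other lists were set beside the complement genes, since the composition of the cultures was not measured directly. In bulk RNA, fewer cells of a type and less RNA per cell cannot be told apart. Of the 12 macrophage markers, 7 were higher in PatDup.dist7, beside 9698 of all 19938 genes, and the median was -0.19. By at least 2-fold, 1 was higher in PatDup.dist7 (Mrc1, 31.7 and 103) and none in MatDup.dist7, beside 3.16% and 4.47% of all genes. Among these markers Adgre1 (548 and 273) and Cd68 (944 and 1586) lay in opposite directions. Their part in the C1q, properdin and C3ar1 values was not tested. Liver markers, chosen because hepatocytes are the main source of complement, had summed intensities of 1305 and 1107, most of it Apoa1 (794 and 645). Of the 9, 6 were higher in MatDup.dist7, beside 10240 of all 19938 genes, and the median was 0.18. Past 2-fold, 1 lay toward MatDup.dist7 and 1 toward PatDup.dist7, beside 4.47% and 3.16% of all genes. The first was Alb (18.7 and 0.00510), under the signal filter and with 1 value near the bottom of the scale. The second was Apoa2, at 25.4 and 69.8. Mast cell markers had sums of 237 and 361 and differed in direction. Higher in PatDup.dist7 were 3 of 5, beside 9698 of all 19938 genes. They were Mcpt4 at 20.2 and 183, Cma1 at 74.7 and 86.8 and Cpa3 at 1.39 and 18.1. Kit at 121 and 71.6 and Fcer1a at 19.3 and 2.28 were higher in MatDup.dist7. Mcpt4 had the largest of the PatDup.dist7 values and was the only 1 past 2-fold, beside 3.16% of all genes toward PatDup.dist7. Cpa3 and Fcer1a were under the signal filter. The part of mast cells was not tested. The erythroid list was represented by Alas2 alone (40.8 and 32.5). All 5 epithelial markers were higher in MatDup.dist7, beside 10240 of all 19938 genes, with sums of 755 and 435 and Krt19 at 152 and 18.8.

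Genes known to respond to the signals that induce complement were set beside Cfb and Serping1. Cfb, C2, C4b and Serping1 are known interferon-responsive genes. Of 7 measured interferon-responsive genes outside complement, none was past 2-fold toward MatDup.dist7 and 1 was toward PatDup.dist7, beside 4.47% and 3.16% of all genes. The latter was Ifit1 (18.1 and 59.1), under the signal filter. The median of the 7 was -0.01. Tap1 and Psmb8, which serve antigen presentation, differed by -0.18 and -0.01. Of 13 genes of the NF-kB and acute-phase list, 1 was past 2-fold toward MatDup.dist7 (Lcn2, 47.3 and 13.9, 1.08, under the signal filter) and none toward PatDup.dist7, and the median was 0.23. By direction, 8 of the 13 were higher in MatDup.dist7, beside 10240 of all 19938 genes, and 5 in PatDup.dist7. The 8 include the cytokine gene Il6 (15.9 and 4.63, 0.63, under the signal filter) and the NF-kB inhibitor gene Tnfaip3 (86.5 and 59.9, 0.43). The 5 include Cebpb, a transcription factor of the acute-phase response (154 and 273, -0.77). The part of these signals in the Cfb and Serping1 values was not tested.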

How the data were processed

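One array per genotype was analysed. The deposited table gives 1 linear intensity per probe set, made by the authors with Affymetrix Expression Console per the submitters' processing notes; the methods for background, summary and scaling are not stated there. Of 35557 probe sets, 21789 had 1 symbol in the platform annotation, 1621 several and 12147 none. Only those with 1 were used, and 21698 were matched by gene identifier to the GRCm38.p6 gene table. The array's own build is not given, so that table served for names and gene order, and coordinates belong to the RefSeq promoter table alone. On this linear scale log2(intensity + 16) was computed and averaged over the probe sets of a gene. Differences are MatDup.dist7 minus PatDup.dist7, which understates change at low signal. Values under 1 made up 4.78% and 5.03% of the MatDup.dist7 and PatDup.dist7 arrays and were not read as absence.

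With 1 array per genotype there is no test and no p-value; lists are given by counts at 2-fold and medians beside those of all genes. Every selected gene and every complement gene past 2-fold is named; 3 measured neighbours on each side were taken for the 8 selected genes alone and partly named; others were chosen as examples after their values were seen. The genes and lists were chosen with earlier results of these data known. The calculation was tested on simulated arrays in which only genes with strong signal were changed. Weaker genes such as Cfb, Serping1 and Cd55 were therefore not covered by it. Alternatives covered the pseudocount, low signals, scaling, probe sets and fold threshold. Python 3.11.15, numpy 2.4.6 and pandas 2.3.3 were used.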

Additional observations from a re-analysis of the deposited data

How the results depend on the processing

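Of the 8 selected genes, none changed direction under any alternative for its value. Only quantile normalisation and setting the median difference to 0 could have changed it, since the other settings keep the order of the 2 values. Cd59a stayed beyond 2-fold in all 8, Serping1 in 7 of 8, Cfb in 6 of 7 and Cd55 in 4 of 8. Every selected gene has 1 probe set with both values over 1. Leaving out probe sets under 1, keeping genes above the signal filter and taking the highest probe set therefore could not test a value. These settings could only leave it as it was or drop the gene. The counts at 2-fold moved more. The selected genes at least 2-fold higher in PatDup.dist7 numbered 2 with a pseudocount of 1, with signals floored at their 25th percentile, after quantile normalisation and with the median difference set to 0, and 3 at 1.5-fold, against 1 as reported. Those higher in MatDup.dist7 numbered 1 above the signal filter and 0 with a pseudocount of 64 or at 3-fold, against 2. In the complement list, against 4 and 4 as reported, the counts higher in MatDup.dist7 were 8 with a pseudocount of 1 and at 1.5-fold, 1 above the signal filter, and 0 at a pseudocount of 64 or 3-fold; those higher in PatDup.dist7 were 7 at 1.5-fold and 2 at a pseudocount of 64 or 3-fold. Over all genes the counts at 2-fold were 891 and 631, becoming 2183 and 1704 at a pseudocount of 1, or 93 and 80 at 64. Scaling moved the median of all genes by at most its reported value of 0.02. No paired analysis was possible because each genotype has 1 array. Low signal limits genes such as Cfb, Colec10, Csmd1, C5ar2, Cd55b and C4bp, which lie under the signal filter on both arrays.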
